A study of Mus musculus with 10 samples.

Results

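The genes described here encode the integrins and the laminins, the cell-surface receptors and the basement membrane proteins through which cells hold to their surroundings. They were chosen by symbol alone, as every gene named Itga, Itgb, Lama, Lamb or Lamc with a subunit number or letter, and 37 of the 55421 genes in the count table matched, 26 integrin subunits and 11 laminin chains. Each was measured in wounds that had been cut surgically into the skin of db/db mice, which carry a mutated leptin receptor and become obese and diabetic. One group received saline (5 libraries) and the other received saline together with the topical preparation Fu Huang ointment (5 libraries), for 7 days, so the diabetic genotype and the saline were common to both. The comparison asks which transcripts differed in ulcer tissue given the ointment. The labels give neither the age nor the sex of the animals and do not say whether each library came from a separate mouse, so the p-values below speak only of how far these libraries vary, and some of that variation could be technical.

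Every integrin is a pair of 1 alpha and 1 beta chain, and the pairing sets the ligand. The β2 and β7 families are made by leukocytes and bind counter-receptors on other cells, α6β4 and α3β1 hold basal keratinocytes to laminin, and many β1 and αv pairs bind fibronectin, collagens or other matrix proteins. A laminin is a trimer of 1 alpha, 1 beta and 1 gamma chain, and the laminin that holds the Lama3 and Lamb3 chains is the anchoring laminin of the epidermis and is known to be laid down by keratinocytes that move over a wound. The groups used below follow these textbook roles, and several members, such as Itga4, are also made by cells outside their group.

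The libraries held 47.8 to 62.9 M counts each (M, mega). Markers of the labelled tissue were present in all libraries: Krt5 of basal keratinocytes, Col1a1 of fibroblasts and Adgre1 of macrophages each exceeded 100 CPM (counts scaled to the library size, TMM-normalized) in every one. Because the tissue was sequenced in bulk, a lower value can reflect fewer cells of a type or less RNA per cell, and these cannot be told apart. The edgeR quasi-likelihood test called 310 of the 18509 genes tested at an adjusted p under 0.05, which is 1.67% (0.692% higher and 0.983% lower with ointment), and the median log2 fold change over all tested genes was -0.0025.

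All 37 genes passed the filter on low counts. With ointment, Itgad, Itgb2 and Itgb7 of the leukocyte integrins and the laminin chain gene Lamb3 rose, Itgb8 fell, and the other 32 did not pass the test. That is 5 of 37 genes (13.5%) beside 1.67% of all genes tested. The log2 fold change was positive for 19 genes and negative for 18, with a median of 0.01. In 6 genes (the 4 that rose, Itga7 and Itgb1) every ointment library was above every saline library, and in 2 (Itgb8 and Itga2b) every one was below. These 8 are 21.6% of the genes, where 6.54% of all genes tested showed no overlap in either direction (3.11% higher, 3.44% lower). The DESeq2 Wald test called 13 of the 37 (10 higher, 3 lower), in a table where it called 9.06% of all genes. When saline 1 and ointment 5 were both omitted, Itgad alone passed. The plot of fold changes with their intervals sets the 6 groups side by side.

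**Figure D1:**
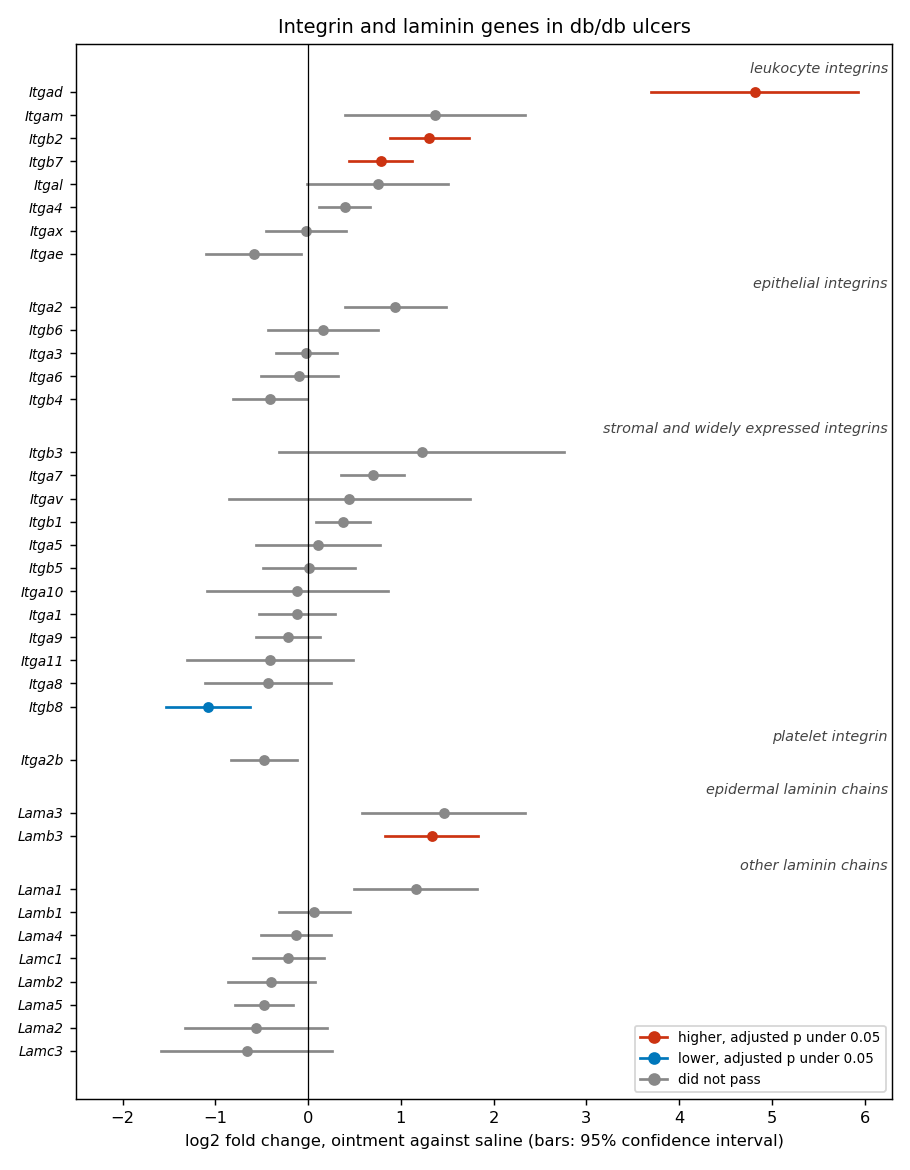
Log2 fold change, ointment against saline, of 36 integrin and laminin genes with 95% confidence intervals (x axis), 1 gene per line and ordered by group (y axis), coloured by whether the adjusted p was under 0.05. The 4 genes in red rose, the 1 in blue fell, and Itgad at 4.81 lies far to the right of all others; Itgb5, at 0.01, turned slightly negative under upper-quartile scaling or library sizes alone.

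Leukocyte integrins were the group with the most called genes, 3 of 8 (37.5%, beside 1.67% of all genes tested). All 3 were higher, as were 0.692% of all genes tested. Positive fold changes were found in 6 (75%, beside 49.7% of all genes tested), and the group median was 0.76 on the log2 scale. Itgad encodes the αD chain (CD11d), a partner of β2 found mainly on macrophages. It was 0.1997, 0.113, 0.463, 0.3796 and 0.496 CPM in saline libraries 1 to 5 and 16.8, 5.74, 6.62, 9.76 and 7.78 CPM in ointment libraries 1 to 5. Its log2 fold change was 4.81 (95% interval 3.70 to 5.93, SE 0.50, adjusted p = 0.00411 by edgeR), a 28.1-fold difference. The groups were far apart, since the highest saline library held 30 counts and the lowest ointment library 307. Saline counts were 7 to 30, and only 4 of the 5 saline libraries reached the level the filter asks for, so the gene entered the test through the ointment libraries. Without any low-count filter it passed as well (log2 change 4.81, adjusted p = 0.00307).

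Itgad lies on chromosome 7 (GRCm38, chr7:128154376-128223816, plus strand) directly downstream of Itgax (chr7:128129547-128150657) and Itgam (chr7:128062640-128118491), which encode the αX and αM partners of β2. Its coding sequence matched that of Itgax at 73.8% of 3444 aligned bases, against 65.8% for Itgam and 58.3% for Itgal. The stretch below is shown because it is the longest one that Itgad and Itgax share without a difference, 188 bases printed in capitals with 10 flanking bases on each side, at coding positions 1314 to 1521 of Itgad and 1191 to 1398 of Itgax (GENCODE transcripts on GRCm38).
Itgad: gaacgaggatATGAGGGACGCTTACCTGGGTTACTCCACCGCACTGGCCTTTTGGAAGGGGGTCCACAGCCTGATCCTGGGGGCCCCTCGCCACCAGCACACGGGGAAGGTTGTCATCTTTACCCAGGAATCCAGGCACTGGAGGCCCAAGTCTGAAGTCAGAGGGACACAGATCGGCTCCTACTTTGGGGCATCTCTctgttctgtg
Itgax: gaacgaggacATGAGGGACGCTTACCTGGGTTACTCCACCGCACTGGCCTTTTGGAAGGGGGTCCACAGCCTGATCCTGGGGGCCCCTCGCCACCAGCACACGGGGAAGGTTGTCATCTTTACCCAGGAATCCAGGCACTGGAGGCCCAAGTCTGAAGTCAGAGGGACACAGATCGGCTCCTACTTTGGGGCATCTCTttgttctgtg
Reads from such a stretch fit both genes, and 512 stretches of 31 bases, 14.3% of those in the Itgad coding sequence, also occur in Itgax. How the deposited counts divided such reads is not given in the sources used here, so part of the Itgad and Itgax counts is uncertain. With Itgam the longest shared run was 16 bases, given in capitals in the next pair, at coding positions 472 to 507 of Itgad and 451 to 486 of Itgam, and no stretch of 31 bases was shared.
Itgad: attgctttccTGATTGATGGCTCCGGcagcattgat
Itgam: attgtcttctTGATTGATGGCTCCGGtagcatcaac
The mean level of Itgax itself was 26.7 ± 5.69 CPM in saline libraries and 26.2 ± 6.004 CPM in ointment libraries (SD, n = 5; log2 fold change -0.03, 95% interval -0.46 to 0.40, adjusted p = 0.968 by edgeR). Over all other genes, 24.2% of the 31-base stretches in the Itgad coding sequence occur elsewhere, and Itgax, 4931431B13Rik and Gm39091 are the genes that share the most. On the same strand Itgad shares 330 exon bases with Gm17831, whose level was not examined. Its exons also overlap 560 bases of genes on the other strand, Gm39091, 4931431B13Rik and Cox6a2. The level of Cox6a2 was 19.3 to 47.9 CPM with saline and 19.4 to 67.1 CPM with ointment, overlapping ranges. 4931431B13Rik held 0 to 12 counts with saline and 3 to 37 with ointment, and Gm39091 held 0 to 4 and 0 to 3. The part of these genes in the Itgad counts was not tested.

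Itgb2 encodes β2 (CD18), the chain shared by αL, αM, αX and αD (chr10:77530252-77565708, plus strand). It was 73.7, 101, 111, 97.4 and 73.8 CPM in saline libraries 1 to 5 and 206, 239, 207, 164 and 313 CPM in ointment libraries 1 to 5, so the lowest ointment library stood above the highest saline library. Its mean rose 2.47-fold (log2 fold change 1.31, 95% interval 0.88 to 1.73, adjusted p = 0.0159 by edgeR). Of the 31-base stretches in its coding sequence 3.16% also occur in the predicted gene Gm14699. Both Itgad and Itgb2 kept an adjusted p under 0.05 whichever of the 10 libraries was left out. Itgb7 encodes β7, which pairs with α4 for homing to mucosa and with αE for binding E-cadherin (chr15:102215995-102231944, minus strand). It was 15.6, 13.9, 18.3, 15.4 and 13.5 CPM in saline libraries 1 to 5 and 24.1, 35.8, 22.8, 24.4 and 24.98 CPM in ointment libraries 1 to 5. Ointment 2 stood above the other ointment libraries, and all 5 were above the saline range. The log2 fold change of Itgb7 was 0.78 (95% interval 0.44 to 1.12, adjusted p = 0.0355 by edgeR), but it passed in only 1 of the 10 fits that left out a library, the one without ointment 4, with adjusted p as high as 0.0862 in the others. It also missed the threshold when library sizes alone set the scale (adjusted p = 0.0584) and when no low-count filter was applied (adjusted p = 0.0636).

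The other alpha chains did not pass the test. Itgam, the αM chain of neutrophils and macrophages, was 60.01, 179, 82.3, 157 and 74.9 CPM in saline libraries 1 to 5 and 173, 409.7, 257, 120.5 and 465 CPM in ointment libraries 1 to 5. Saline 2 and saline 4 were above ointment 4, and the log2 fold change of 1.37 had a wide interval (0.39 to 2.34, adjusted p = 0.144 by edgeR). Itgam shares 3450 exon bases with the predicted gene Gm49368 on the same strand, which held at most 500 counts in any library, against at least 3605 for Itgam. Itgal, the αL chain of lymphocytes and other leukocytes, spanned 14.2 to 23.5 CPM with saline and 13.98 to 53.2 CPM with ointment (log2 change 0.75, adjusted p = 0.298). Itga4, the α4 chain that pairs with β1 or β7, spanned 28.4 to 43.2 CPM and 40.7 to 47.9 CPM (0.39, adjusted p = 0.139), with saline 4 inside the ointment range. Itgae, the αE chain of T cells and some dendritic cells, had the largest negative log2 fold change in this group, -0.59, at 3.63 to 7.26 CPM with saline and 3.06 to 4.47 CPM with ointment (adjusted p = 0.227).

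Per kilobase of exon, the scale on which genes can be set side by side, Itgam held most of the summed level of the 4 β2 partners in both groups, 55.3% to 81.9% in saline libraries and 65.4% to 88.5% in ointment libraries. Itgad contributed 0.056% to 0.501% with saline and 1.38% to 8.15% with ointment, its highest share being in ointment 1. The share of Itgax was 11.9% to 34.5% with saline and 4.30% to 19.5% with ointment. The ratio of Itgb2 to the summed alpha partners per kilobase was 0.741 to 1.46 with saline and 0.851 to 1.48 with ointment, so these ranges overlapped. The stretches that Itgam shares with Gm49368, and Itgad with Itgax, leave these shares and ratios uncertain. The stacked bars by library show these shares beside those of the laminin alpha chains.

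**Figure D2:**
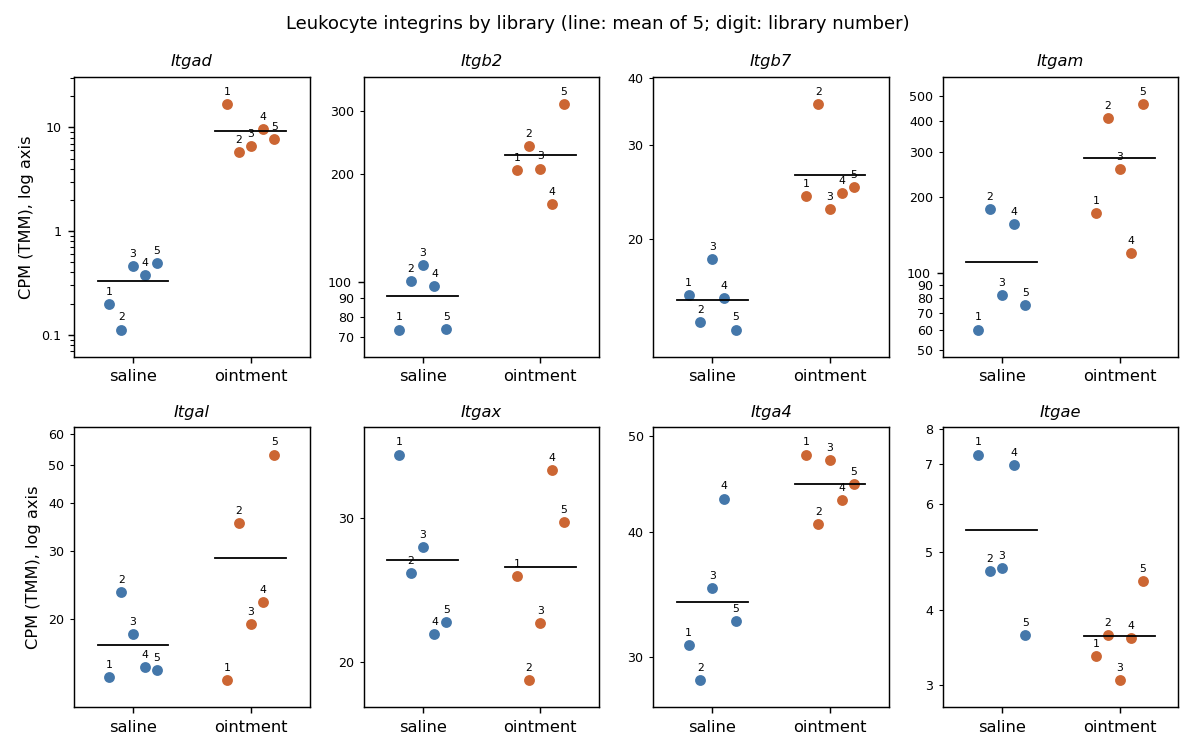
Level of the 8 leukocyte integrin genes in each library (y axis, TMM-scaled CPM on a log axis with its own range per gene), with saline in blue, ointment in orange, the library number above each point and a line at the mean of 5. Itgad, Itgb2 and Itgb7 show no overlap between the groups, while the other 5 genes do overlap.

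Fold changes of macrophage and neutrophil markers were positive, as were those of 6 of the 8 leukocyte integrins. The 10 macrophage markers summed to 2653 to 5047 CPM with saline and 6382 to 8502 CPM with ointment. All 10 had positive fold changes, and 2 passed (20%, beside 1.67% of all genes tested). These were Adgre1 (log2 change 0.87, edgeR adjusted p = 0.0065) and Cd68 (0.78, adjusted p = 0.0125), both also with any 1 library left out. The 10 neutrophil markers summed to 852 to 2729 CPM with saline and 1689 to 7824 CPM with ointment, ranges that overlapped. All 10 had positive fold changes and none passed the test. Ngp and Camp of that list were each listed at 0 in 1 saline library and were below 3 CPM in the others. T and natural killer cell markers (38.9 to 48.9 CPM against 34.5 to 47.4 CPM) overlapped, as did dendritic cell markers (41.7 to 51.5 CPM against 40.9 to 53.7 CPM), in which Cd207 of Langerhans cells fell (log2 change -1.05, adjusted p = 0.0343; past the threshold in only 1 of the 10 fits without a library, that without ointment 4). The part of these cell types in the levels of the leukocyte integrins was not tested.

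Integrins are activated when talin and kindlin engage the beta tail, and 27 genes of that machinery were tested. Of these 27, 4 rose and none fell (14.8% called, beside 1.67% of all genes tested and 0.692% higher). Positive fold changes were found in 22 of them (81.5%, beside 49.7% of all genes tested), and the median log2 fold change was 0.19. Fermt3, which encodes kindlin-3 of blood cells, was 28.1 to 42.0 CPM with saline and 49.1 to 81.5 CPM with ointment (log2 change 0.96, edgeR adjusted p = 0.0304). Apbb1ip, which encodes the RIAM adaptor that brings talin to the membrane, was 26.6 to 41.9 CPM with saline and 49.0 to 93.0 CPM with ointment (0.94, adjusted p = 0.0457). The focal adhesion kinase relative gene Ptk2b (0.71, adjusted p = 0.0319) and the parvin gene of blood cells, Parvg (0.70, adjusted p = 0.0384), rose as well. In all 4 the groups did not overlap. Each of these 4 passed in only 1 to 3 of the 10 fits that left out a library: Fermt3 without saline 5, ointment 3 or ointment 4, Ptk2b without saline 3 or ointment 4, Parvg without ointment 1 or ointment 4, and Apbb1ip without ointment 4. Tln1, the talin gene, was also without overlap but missed the threshold (0.50, adjusted p = 0.0533).

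None of the 9 tested ligand genes of leukocyte integrins passed, and their median log2 fold change was -0.08. Cdh1, encoding E-cadherin, the ligand of αEβ7, averaged 199 ± 44.4 CPM with saline and 123 ± 17.4 CPM with ointment (SD, n = 5; log2 fold change -0.69, adjusted p = 0.0759 by edgeR). Jam2, encoding an endothelial junction protein that binds α4β1, showed a log2 change of -0.91 (adjusted p = 0.0803), with every ointment library below every saline library. Madcam1, encoding the α4β7 ligand of mucosal vessels, stayed near the lower end of measurement, at 0.386 ± 0.289 CPM and 1.36 ± 0.635 CPM (SD, n = 5; adjusted p = 0.126).

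Among the epithelial integrins none of the 5 passed, and the group median was -0.02 on the log2 scale. Itga2, the α2 chain of the collagen receptor α2β1, came nearest. It was 20.7, 21.8, 10.9, 20.7 and 16.4 CPM in saline libraries 1 to 5 and 20.5, 44.8, 37.99, 31.3 and 38.9 CPM in ointment libraries 1 to 5 (log2 fold change 0.94, 95% interval 0.39 to 1.48, adjusted p = 0.0868 by edgeR). Ointment 1 lay within the saline range, and the other 4 ointment libraries lay above it. Itga6 and Itgb4 encode the hemidesmosome integrin α6β4. Itga6 was 47.4 to 84.2 CPM with saline and 48.6 to 76.3 CPM with ointment (log2 fold change -0.09, 95% interval -0.51 to 0.33). Itgb4 was 47.8 to 69.7 CPM and 28.9 to 57.2 CPM (-0.41, 95% interval -0.81 to -0.01, adjusted p = 0.275). Only ointment 2 reached the saline range of Itgb4. Itga3, whose product pairs with β1 as a laminin receptor, and Itgb6, whose β6 chain is known from migrating keratinocytes, had log2 fold changes of -0.02 (95% interval -0.35 to 0.31) and 0.16 (-0.43 to 0.75).

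Lamb3 and Lama3 encode chains of the epidermal laminin to which α6β4 and α3β1 bind, and Lamb3 passed the test. Lamb3, encoding the β3 chain (chr1:193207699-193343878, plus strand), was 82.1, 79.5, 43.5, 79.4 and 58.99 CPM in saline libraries 1 to 5 and 115, 181, 183, 157 and 229 CPM in ointment libraries 1 to 5. The lowest ointment library, ointment 1, was above the highest saline library. Lamb3 rose 2.52-fold (log2 fold change 1.33, 95% interval 0.83 to 1.83, adjusted p = 0.0218 by edgeR). It passed in 8 of the 10 fits that left out a library, and adjusted p by edgeR was 0.061 without ointment 3 and 0.052 without ointment 5. Lama3, encoding the α3 chain (chromosome 18), was 103, 146, 28.2, 87.4 and 92.1 CPM in saline libraries 1 to 5 and 126, 319, 315, 229.8 and 268 CPM in ointment libraries 1 to 5. Its log2 fold change was 1.46 (95% interval 0.58 to 2.34), the largest among the laminins, but with an adjusted p of 0.0964 by edgeR it missed the threshold, and saline 2 stood above ointment 1. Saline 3 was the lowest library for both genes.

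**Figure D3:**
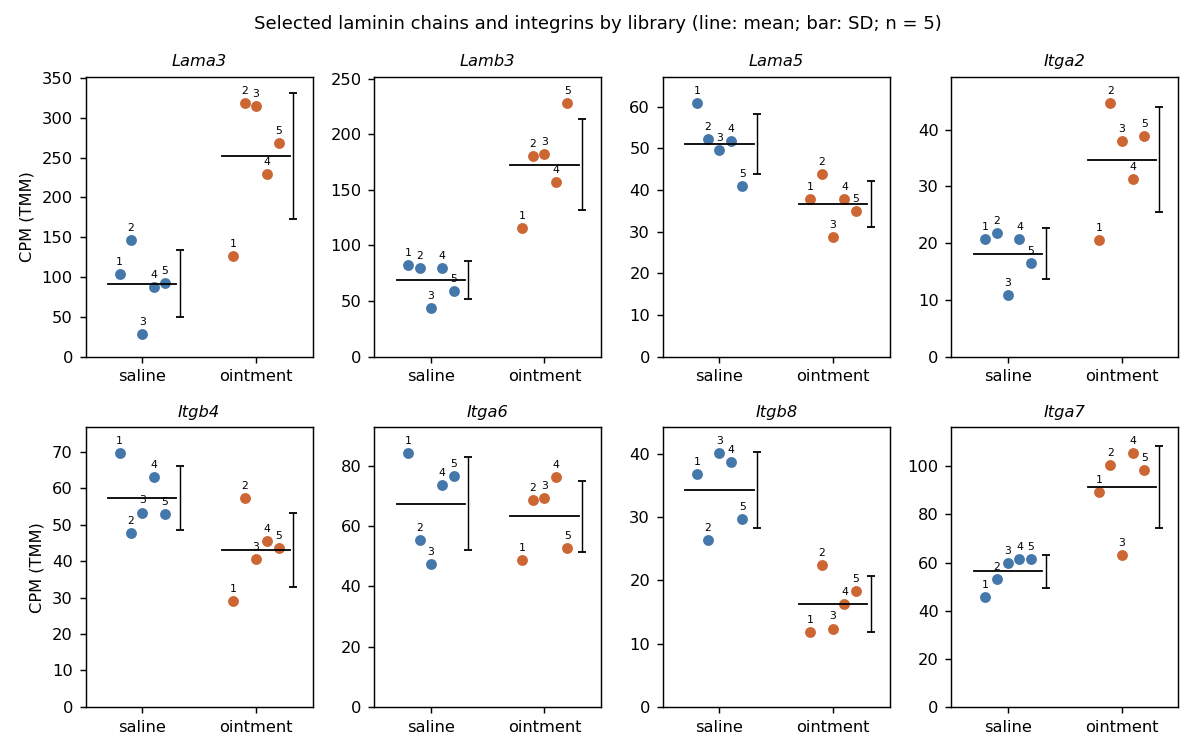
Level of 3 laminin chain genes and of 5 integrin genes in each library (y axis, TMM-scaled CPM from 0), with saline in blue, ointment in orange, the library number above each point, a line at the mean and a bar of 1 SD either way (n = 5). Lamb3, Itgb8 and Itga7 show no overlap between the groups, while Itgb4 overlaps through ointment 2 alone and Itga6 across most of its range.

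These chains were also set against the other chains of their kind, per kilobase of exon. Lama3 was 9.35% to 32.5% of the summed alpha chain level in saline libraries and 30.2% to 62.6% in ointment libraries, where only saline 2 reached the range of the other group. Lamb3 was 11.9% to 24.7% of the beta chains with saline and 24.8% to 53.5% with ointment. These shares add no test to that of the single genes.

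**Figure D4:**
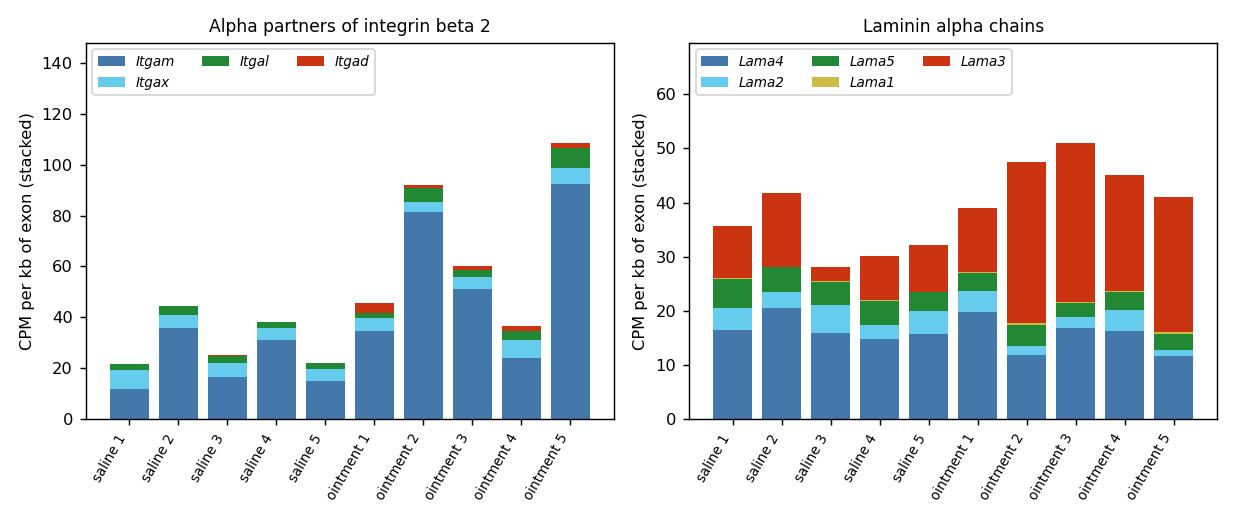
Level per kilobase of exon (y axis, TMM-scaled CPM per kb, stacked) of the 4 alpha partners of β2 (left) and of the 5 laminin alpha chains (right) in each of the 10 libraries (x axis). On the left Itgam fills most of each bar and the Itgad layer, 1.38% to 8.15% with ointment, is hard to see with saline; on the right the Lama3 layer is deepest in ointment 2 and ointment 3.

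Basal keratinocyte markers summed to 11094 to 19675 CPM with saline and 10773 to 19569 CPM with ointment, and none of the 7 passed. None of them was at 0 in any library. Of 10 partners that anchor keratinocytes, 1 passed (10%, beside 1.67% of all genes tested) and 8 had negative fold changes, with a median of -0.26. Frem2, which encodes a Fraser complex protein of the epithelial basement membrane, fell from 6.86 to 12.1 CPM with saline to 2.08 to 3.28 CPM with ointment (log2 change -1.66, edgeR adjusted p = 0.0143), and it passed whichever library was left out. Fras1, encoding another protein of that complex, was also without overlap but missed the threshold (-1.93, adjusted p = 0.0778). Dst, encoding the hemidesmosome plakin BPAG1, showed a log2 change of -0.36 (adjusted p = 0.323). Hair follicle markers moved in the same direction: 11 of 11 fold changes were negative and 8 passed (72.7%, beside 1.67% of all genes tested). Of these 11 genes, 5 were listed at 0 in at least 1 library. The sum of the 11 was 33.1 to 604 CPM with saline and 7.46 to 13.3 CPM with ointment. The part of the hair follicle in the levels of Frem2 and Fras1 was not tested.

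The group of 12 stromal and widely expressed integrins held 1 called gene (8.33%, beside 1.67% of all genes tested), and its median log2 fold change was -0.05. Itgb8 encodes β8, which pairs only with αv and is known for releasing active TGF-β from its latent form (chr12:119158022-119238802, minus strand). It was 36.9, 26.3, 40.1, 38.7 and 29.7 CPM in saline libraries 1 to 5 and 11.8, 22.5, 12.4, 16.3 and 18.3 CPM in ointment libraries 1 to 5, and every ointment library was below every saline library. Itgb8 fell by 1.08 on the log2 scale (95% interval -1.54 to -0.62, adjusted p = 0.0339 by edgeR). It passed in 3 of the 10 fits that left out a library, those without saline 2, saline 5 or ointment 2, with adjusted p as high as 0.081 in the others. Besides the hair follicle list and Cd207 above, 7 of the 8 Schwann cell markers had negative fold changes. Of these 8, 1 fell (12.5%, beside 1.67% of all genes tested), Sox10 (-1.45, edgeR adjusted p = 0.0401). With a library left out, Sox10 passed only without ointment 4. The 8 markers summed to 96.3 to 210 CPM with saline and 76.4 to 149 CPM with ointment. None of the Schwann cell markers was at 0 in any library, and the part of these cells in the level of Itgb8 was not tested.

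The αv gene, Itgav, which is the partner of Itgb8, varied widely within both groups, 31.7, 34.4, 49.00, 16.6 and 113 CPM in saline libraries 1 to 5 and 24.2, 88.7, 138, 35.6 and 46.6 CPM in ointment libraries 1 to 5 (log2 fold change 0.44, 95% interval -0.85 to 1.74, adjusted p = 0.78 by edgeR). Itgb3, the β3 chain of vessels, platelets and osteoclasts, was 12.6, 22.4, 12.2, 14.2 and 12.6 CPM in saline libraries 1 to 5 and 60.9, 3.79, 6.14, 57.8 and 44.4 CPM in ointment libraries 1 to 5. Ointment libraries 1, 4 and 5 stood above all saline libraries and ointment 2 and 3 below them, so the log2 fold change of 1.22 had the widest interval of all 37 genes (-0.31 to 2.76, adjusted p = 0.414).

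Itgb1, the β1 chain shared by most matrix-binding integrins, was the most abundant integrin gene per kilobase, at 230 ± 39.2 CPM per kb with saline and 299 ± 23.5 CPM per kb with ointment (SD, n = 5). In CPM it was 908, 1111, 693, 931 and 1044 in saline libraries 1 to 5 and 1225, 1135, 1318, 1112 and 1309 in ointment libraries 1 to 5. Its groups did not overlap by a narrow margin, and it missed the threshold (log2 fold change 0.38, 95% interval 0.09 to 0.67, adjusted p = 0.172 by edgeR). Itga7, the α7 laminin receptor chain of skeletal and smooth muscle, was 45.7, 53.2, 59.8, 61.6 and 61.6 CPM in saline libraries 1 to 5 and 89.5, 101, 62.96, 106 and 98.4 CPM in ointment libraries 1 to 5. All ointment libraries were higher, ointment 3 by little, and the test was just missed (0.70, 95% interval 0.36 to 1.04, adjusted p = 0.0558). It passed in the fit without ointment 3 (adjusted p = 0.0286) and with the values divided by 4 (adjusted p = 0.046). Skeletal muscle markers summed to 1793 to 5232 CPM with saline and 1215 to 7026 CPM with ointment. All 10 pericyte and smooth muscle markers had negative fold changes, and 1 fell (10%, beside 1.67% of all genes tested). It was Myh11 (log2 change -0.83, edgeR adjusted p = 0.04), which passed in none of the 10 fits that left out a library. Of the fibronectin and collagen receptor chains, Itga5 showed a log2 change of 0.11 (95% interval -0.56 to 0.77), Itga1 of -0.12 (-0.53 to 0.29), Itga10 of -0.12 (-1.09 to 0.86) and Itga11 of -0.41 (-1.31 to 0.48). Itga8, Itga9 and Itgb5 had adjusted p of 0.545, 0.539 and 0.992.

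None of the 14 tested genes for ligands that carry an RGD motif or belong to the provisional wound matrix passed, and their median log2 fold change was -0.06. Ccn2, encoding a matricellular protein that binds αv integrins, had no overlap between the groups but missed the threshold (48.5 ± 10.98 CPM with saline and 85.2 ± 14.8 CPM with ointment, SD, n = 5; log2 fold change 0.81, adjusted p = 0.0584 by edgeR). Thbs1, encoding thrombospondin, had a larger log2 fold change of 1.99 with more spread (680 ± 443 CPM and 2706 ± 1962 CPM, adjusted p = 0.175). Vwf, encoding von Willebrand factor, was at -0.82 (adjusted p = 0.168).

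The platelet integrin gene Itga2b, whose αIIb chain pairs with β3, was 10.2, 12.1, 14.1, 10.4 and 12.8 CPM in saline libraries 1 to 5 and 9.82, 8.09, 7.498, 10.1 and 7.32 CPM in ointment libraries 1 to 5. Every ointment library was below every saline library, though by a small margin, and the log2 fold change of -0.48 (95% interval -0.83 to -0.12) did not pass (adjusted p = 0.158 by edgeR). Of the 4 tested genes of the platelet list, Itga2b and Gp1ba (-0.20, adjusted p = 0.818) had negative fold changes and the platelet chemokine genes positive ones. Pf4 showed a log2 change of 1.22 (edgeR adjusted p = 0.0778) and Ppbp of 3.48 (adjusted p = 0.0706), neither passing. For Ppbp every ointment library was above every saline library, while the groups overlapped for Pf4. The 7 genes of that list summed to 108 to 240 CPM with saline and 233 to 728 CPM with ointment, and 3 of them, Gp1bb, Gp9 and Gp6, did not pass the low-count filter.

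Of the other 8 laminin chains none passed, 6 had negative fold changes and the group median was -0.31. Lama1, encoding the α1 chain, was low throughout, at 1.76, 0.8199, 1.06, 1.202 and 0.925 CPM in saline libraries 1 to 5 and 1.75, 3.64, 2.28, 2.08 and 3.16 CPM in ointment libraries 1 to 5 (log2 change 1.16, edgeR adjusted p = 0.0836). Ointment 1 lay just under saline 1, and the other ointment libraries were above the saline range. Lama5, encoding the α5 chain of epidermal and vascular basement membranes, was 60.99, 52.1, 49.6, 51.9 and 40.8 CPM in saline libraries 1 to 5 and 37.9, 43.8, 28.6, 37.9 and 34.9 CPM in ointment libraries 1 to 5 (-0.48, 95% interval -0.79 to -0.17, adjusted p = 0.117). Only saline 5 fell within its ointment range. Lamb2, the laminin β2 chain of mature vessels and nerve, was 107, 104, 123, 91.3 and 108 CPM in saline libraries 1 to 5 and 100.01, 66.8, 84.95, 106 and 46.1 CPM in ointment libraries 1 to 5 (-0.40, adjusted p = 0.377). Lama2, the α2 chain of muscle and nerve, was 67.2, 49.1, 83.5, 40.6 and 67.1 CPM in saline libraries 1 to 5 and 63.4, 28.96, 34.1, 63.2 and 18.8 CPM in ointment libraries 1 to 5 (-0.56, adjusted p = 0.467). In both genes ointment 5 was lowest and ointment 1 and 4 lay within the saline range. Lama4, the α4 chain of endothelial cells, Lamb1, Lamc1 and Lamc3 had log2 fold changes of -0.13, 0.07, -0.21 and -0.66, with adjusted p from 0.474 to 0.903. For all 10 endothelial markers the fold change was negative, without 1 of them passing; they summed to 696 to 1004 CPM with saline and 427 to 735 CPM with ointment, Cldn5 was listed at 0 in ointment 1 and ointment 2, and their part in the laminin levels was not tested.

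Of 16 genes for proteins that build or bind basement membranes beside laminin, 1 passed, where 1.67% of all genes tested did. Of the 16, 12 had negative fold changes, and the median was -0.20. Bcam, encoding the Lutheran glycoprotein, a receptor for the laminin α5 chain, fell from 95.8 ± 18.8 CPM to 53.4 ± 9.89 CPM (SD, n = 5; log2 change -0.84, edgeR adjusted p = 0.0399), and its groups did not overlap. Bcam passed in only 2 of the 10 fits that left out a library, those without saline 5 or ointment 4. Agrn, encoding agrin, had no overlap either and did not pass (-0.49, adjusted p = 0.189). Smoc1, encoding a calcium-binding basement membrane protein, was at 0.79 (adjusted p = 0.225).

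Promoter windows of 300 bases, 250 before and 50 after the start of transcription, were held by RefSeq (GRCm38.p6) for 23 of the 37 genes, in 26 windows. The windows of the called genes with an entry are printed because these genes differed between the groups. Capitals mark the letters GAGGAA, the core of the site bound by the myeloid factor PU.1, on either strand.
Lamb3 (chr1:193301744-193302043, plus strand): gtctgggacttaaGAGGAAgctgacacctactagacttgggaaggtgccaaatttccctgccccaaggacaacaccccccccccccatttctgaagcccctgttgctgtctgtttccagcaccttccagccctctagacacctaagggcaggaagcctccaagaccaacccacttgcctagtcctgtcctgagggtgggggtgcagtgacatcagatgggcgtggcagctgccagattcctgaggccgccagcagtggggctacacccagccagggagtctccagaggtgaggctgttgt
Itgb7 (chr15:102231886-102232185, minus strand): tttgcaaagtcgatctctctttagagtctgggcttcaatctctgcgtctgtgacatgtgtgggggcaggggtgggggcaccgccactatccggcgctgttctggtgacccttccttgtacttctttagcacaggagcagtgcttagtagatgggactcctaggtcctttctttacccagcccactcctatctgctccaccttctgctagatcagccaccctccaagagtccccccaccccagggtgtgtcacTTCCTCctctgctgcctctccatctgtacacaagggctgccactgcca
Itgb8 (chr12:119238227-119238526, minus strand): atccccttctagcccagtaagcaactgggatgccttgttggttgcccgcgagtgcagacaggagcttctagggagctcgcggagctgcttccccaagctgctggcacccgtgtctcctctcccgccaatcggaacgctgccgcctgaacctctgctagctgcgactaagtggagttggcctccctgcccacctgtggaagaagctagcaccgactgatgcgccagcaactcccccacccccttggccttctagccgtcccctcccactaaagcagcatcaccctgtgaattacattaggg
The letters occurred once in the Lamb3 window, once in the Itgb7 window on the reverse strand, and not in the Itgb8 window. They occurred in 14 of the 26 windows of this family and in 28.3% of the 32851 windows of all genes. The letters TGANTCA of the AP-1 site occurred in 3 of the 26 windows, those of Itga3, Itga9 and Itgax, and in 7.81% of all windows. A second, overlapping Lamb3 window (chr1:193301993-193302292) held neither. Such matches describe letters only.

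Across libraries, the genes of a group did not rank the samples alike. Among ointment libraries, Itgb2 and Itgam were both highest in ointment 5 and next in ointment 2, and Itgal followed the same order at its top. Itgad was instead highest in ointment 1 and lowest in ointment 2. Lama3 and Lamb3 had their lowest ointment value in ointment 1, where Itgb4 and Itga2 were lowest too. The heatmap of the genes shows these differences by library.

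**Figure D5:**
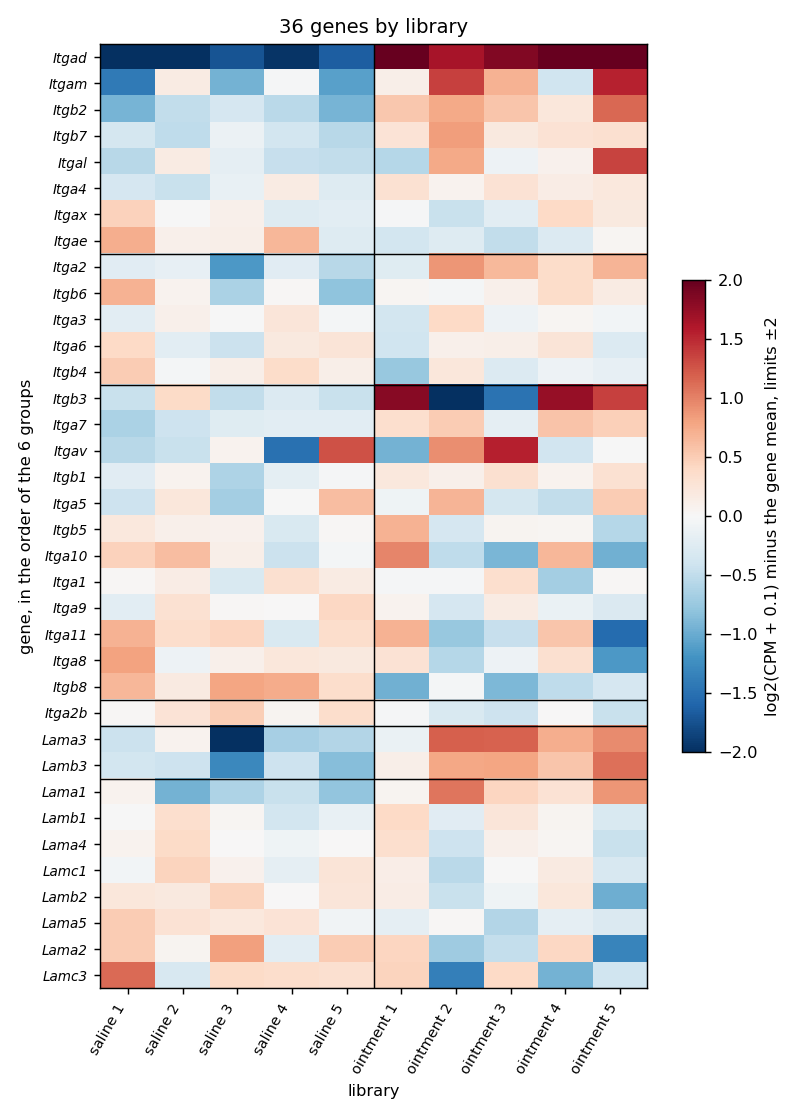
Log2(CPM + 0.1) of 36 of the genes (rows, by group) minus the gene's mean over the 10 libraries (columns, saline 1 to 5 then ointment 1 to 5), with the colour scale limited to 2 either way. The top block of leukocyte integrins is led by Itgad, blue in all saline libraries and red in all ointment libraries, and Lama3 and Lamb3 are darkest blue in saline 3.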

How the data were processed

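Ulcer tissue of 10 libraries, 5 per group, was sequenced. Per the labels' protocols, total RNA came from a spin-column kit and the SMARTer mRNA kit was used for libraries. The submitters' processing notes name GRCm38 (mm10) as build. The aligner, the counter, the annotation and whether strand was kept: not given in the sources used here, so antisense partners cannot be separated.

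The deposited values were estimated counts per gene from the authors, whole numbers without normalization, in 1 table of 55421 genes, and they were used as deposited without rounding. Multiples of 4 are over-represented among low values, so a count may not be 1 read, and counts served as estimates. Every column matched a label (0 unmatched).

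Groups were compared with the edgeR 4.0.16 quasi-likelihood F-test (R 4.3.3; limma 3.58.1), robust dispersion, TMM scaling and group as the only term. The filterByExpr filter (minimum count 10, minimum total 15) kept 18509 genes. Tests were two-sided, with Benjamini-Hochberg adjustment over all of these, with a threshold of 0.05, and this holds for every adjusted p. Levels are TMM-scaled CPM, given per library or as mean ± SD, and intervals are 95%. Values per kilobase use the summed exons of GENCODE release M21, and promoter windows are from RefSeq. Coding sequences, exon overlaps and shared 31-base stretches came from the same GENCODE release. The fitting was tested on simulated counts.

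The genes, partner lists and cell type markers were chosen with earlier results of these data known, so no list was tested as a set and lists are described by counts and medians. Every integrin and laminin could be named; some genes are not reported here singly and enter only counts, medians and sums over lists. Per-library values go to those past the threshold and the 4 with the smallest p in each group, and from each other list those past the threshold and up to 3 with the smallest p. The table lacked Krt85 of the marker lists, and Ccn1 and Ccn2 stood under their current symbols. Alternatives tried were scaling by DESeq2 size factors, by the upper quartile or by library size only, no filter, a filter at a mean of 5 CPM, no robust dispersion, a DESeq2 1.42.0 Wald test, limma voom with sample weights, values divided by 4, the replicate number as a block, each library left out in turn, and 4 libraries per group (without saline 1 and ointment 5).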

Additional observations from a re-analysis of the deposited data

Results flagged for a closer look

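Each of the 37 genes was examined in each group of 5 libraries for 1 library set apart from the rest, by Dixon's ratio of its gap to the whole range, and 3 of 74 groups stood out, where chance marks about 1 in 20. Itgb7 was 35.8 CPM in ointment 2, with the other ointment libraries at 22.8 to 25.0 CPM. Lama4 was 247 CPM in saline 2, with the other saline libraries at 179 to 198 CPM. Itgb3 was 22.4 CPM in saline 2, with the other saline libraries at 12.2 to 14.2 CPM.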

How the results depend on the processing

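With edgeR the count of integrin and laminin genes past the threshold was 5, and it was 4 to 6 under the other scalings, filters, no robust dispersion, limma voom and values divided by 4. Itgb7 was lost with library sizes alone and with no low-count filter, Itgad was not tested at 5 CPM, and Itga7 was gained with values divided by 4. Leaving out each library in turn gave 2 (without ointment 5) to 4. The DESeq2 Wald test called 13 (10 higher, 3 lower), where it called 1677 of all genes (9.06%). With 4 libraries per group 1 was called, Itgad, and 59 of all genes. Leaving out each library gave 102 (without ointment 3) to 422 (without ointment 4) of all genes. The partner lists had 6 of 75 genes past the threshold by edgeR, beside 310 of all 18509 genes tested (1.67%). With a library left out they had 1 to 8. With no low-count filter they had 2 of 76, beside 212 of all 31017 genes, and with DESeq2 they had 15 of 75, beside 9.06% of all genes. By edgeR with 4 libraries per group they had 0, beside 59 of all genes, and 16 had an unadjusted p under 0.05. The cause of these shifts was not tested.

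Same-numbered libraries did not deviate together (correlations 0.0562, 0.0061, -0.0727, -0.0772 and -0.0592, none the best match of its saline library). Such correlations cannot show that the design had no pairing, and the labels do not state one. With the replicate number as a block edgeR called 0 of all genes (2602 with an unadjusted p under 0.05), 0 integrin and laminin genes (14 under 0.05) and 0 partner genes (19 under 0.05). DESeq2 was not run with the block.

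Directions turned for 9 genes, none of them past the threshold. On the log2 scale, with 4 libraries per group, Itga6 was at 0.0564, Itgax at 0.0528, Itga5 at -0.0991 and Itga10 at 0.1387. Itgb5 was at -0.0144 with upper-quartile scaling, -0.0376 with library sizes alone, -0.0041 with the 5 CPM filter and -0.0458 with the replicate block. With each library left out, the range was -0.1372 to 0.0571 for Itga3, -0.1339 to 0.0931 for Itgax, -0.0316 to 0.1836 for Lamb1, -0.0045 to 1.0156 for Itgav, -0.2339 to 0.0144 for Itga1, -0.0742 to 0.2992 for Itga5, -0.4788 to 0.0616 for Itga10 and -0.2142 to 0.1312 for Itgb5. The single values under the alternatives were counted for the integrin and laminin genes together with the called partner and marker genes. Of these values 973 kept direction and side of the threshold, 178 were no longer past it, 10 newly passed and 28 turned. Those that were no longer past the threshold thus include values of hair follicle, adaptor and other marker genes, while all that turned were of integrin or laminin genes. Itgad, Itgae, Itga10, Lama1 and Lamc3 were below the 5 CPM filter and have no value there. Depth limits Itgad most, with 7 to 30 counts in the saline libraries.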
